A study of Mus musculus with 64 samples.

Results

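The 31 genes described here are markers and building blocks of the mature oligodendrocyte, the glial cell that wraps axons in myelin. They were taken by symbol from the count tables of a mouse striatum study, and all 31 were found among 23420 listed genes and among the 16113 that passed a filter on low counts. The mice were F2 offspring of a C57BL/6NJ by C57BL/6J cross, so the rest of the genome segregates between both substrains in every animal. N/N mice were homozygous for a mutant C57BL/6NJ allele and are labelled binge-prone, and J/J mice were homozygous for the wild-type C57BL/6J allele and are labelled binge-resistant. The labels do not name the locus. By the sample labels 5 females and 3 males made up each genotype, 8 mice, although the series text gives 4 of each sex. All were 69 to 100 days old, and all gave striatum punches on day 24, straight after 5 min on an elevated plus maze (EPM), so no group was left without that test. Poly(A) RNA was sequenced 4 times per mouse, and the counts of the 4 runs were added.

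Myelin is a stack of membrane folded by the oligodendrocyte around an axon, and it speeds the nerve impulse. Its layers are held together by abundant structural proteins, its membrane is rich in galactolipids, and a set of transcription factors keeps the cell in its myelinating state. In the striatum the myelin lies mostly in bundles of passing fibres, so the amount of myelin RNA in a punch depends on where the punch falls as well as on the cells. In bulk tissue, fewer oligodendrocytes and less RNA per oligodendrocyte cannot be told apart.

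Letters of promoters are shown for 3 members because Mobp had the widest range between mice (2.24-fold) and because Mag and Cnp each hold matches to motifs of both SOX and MYRF, 2 kinds of oligodendrocyte transcription factor. Promoter windows were taken from RefSeq on GRCm38.p6, the assembly that mm10 names, and 22 of the 31 members had 1 or more, Sept4 under its newer symbol. Each line gives the 250 bases before the start of transcription, 5′ to 3′ on the strand of the gene, with capitals for the SOX core ACAAAG or its reverse complement CTTTGT and for the MYRF motif CTGGCAC or its reverse complement GTGCCAG. Mobp lies at chr9:120149492-120149741 on the plus strand, Mag at chr7:30914864-30915113 on the minus strand, and Cnp at chr11:100574689-100574938 on the plus strand.
Mobp: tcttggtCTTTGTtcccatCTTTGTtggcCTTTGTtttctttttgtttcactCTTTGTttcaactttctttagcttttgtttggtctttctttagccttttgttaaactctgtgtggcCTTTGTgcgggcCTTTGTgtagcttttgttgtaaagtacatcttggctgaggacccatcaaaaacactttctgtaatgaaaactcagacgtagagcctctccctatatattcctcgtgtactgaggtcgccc
Mag: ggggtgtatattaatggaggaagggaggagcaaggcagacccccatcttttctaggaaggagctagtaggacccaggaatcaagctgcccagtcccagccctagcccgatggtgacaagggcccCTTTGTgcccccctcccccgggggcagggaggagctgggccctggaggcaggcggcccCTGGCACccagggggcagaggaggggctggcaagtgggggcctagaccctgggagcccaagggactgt
Cnp: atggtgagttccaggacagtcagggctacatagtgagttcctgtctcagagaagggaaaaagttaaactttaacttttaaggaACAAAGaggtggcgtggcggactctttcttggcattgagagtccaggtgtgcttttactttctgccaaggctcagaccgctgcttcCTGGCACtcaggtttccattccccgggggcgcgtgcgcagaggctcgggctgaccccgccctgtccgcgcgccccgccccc
The Mobp window held 6 matches to the SOX core, all on the reverse strand, and Mag and Cnp each held 1 SOX core and 1 MYRF motif. The printed matches do not overlap each other.

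Over all promoters of the table, 16.5% of 32851 windows held the SOX core, against 10 of 34 windows of the members (29.4%), which belong to Cnp, Gjb1, Mag, Mobp, Opalin, Plekhb1, Sept4 and Tspan2. The MYRF motif was in 4 of the 34 member windows (11.8%), those of Cnp, Hapln2 and Mag, and in 4.19% of all windows. CAGCTG, an E-box of the kind that OLIG2 and its relatives bind, was in 5 of the 34 member windows (14.7%) and in 4271 of all 32851 windows. Both strands were searched. These are matches of letters, and binding was not measured.

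The punches carried a large myelin signal in every mouse. The 31 genes together took 0.520% to 0.884% of all gene reads of a mouse, and Mbp alone gave 41.8% to 48.2% of the reads of the 31. Levels between genes were compared as means over the mice per kilobase of exon. Mbp, which glues the inner faces of the myelin membrane together, was highest at 357 CPM (counts scaled to a common library total) per kb. Qdpr, an enzyme that recycles tetrahydrobiopterin, followed at 107 CPM per kb, the membrane proteolipid Mal at 106, Cnp at 101 and Plekhb1, a protein with a pleckstrin homology domain, at 100.0. The transcription factors had the lowest median of the 6 role groups, with Olig1 at 38.0, Sox10 at 13.3, Olig2 at 7.83, Myrf at 7.41 and Nkx6-2 at 2.98 CPM per kb.

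The level of the whole set varied between mice. A score, the mean log2 CPM of the 31 genes, ran from 6.01 in N/N female mouse 13 to 6.69 in N/N female mouse 11, a 1.60-fold range on the linear scale. Summed CPM ran from 5191 in J/J male mouse 8 to 8849 in N/N female mouse 11, a 1.71-fold range. The 4 mice of highest score were 11, 9 and 12, all N/N, and 7, a J/J female, and for 21 of the 31 genes these were also the 4 mice of highest level. At the low end, 12 genes had their minimum in N/N female mouse 13 and 12 in J/J male mouse 8. The SD of log2 CPM between mice had a median of 0.24 over the 31 genes, from 0.12 for Car2 to 0.30 for Nkx6-2. Between the 4 runs of 1 mouse it had a median of 0.060, from 0.011 for Mbp to 0.23 for Nkx6-2, the gene with the fewest reads per kb. The SD between runs was taken from single runs and that between mice from the summed counts, so they are not directly comparable. The runs repeat the sequencing of 1 library per mouse, so their spread is technical only and holds no error of dissection or library preparation.

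**Figure D1:**
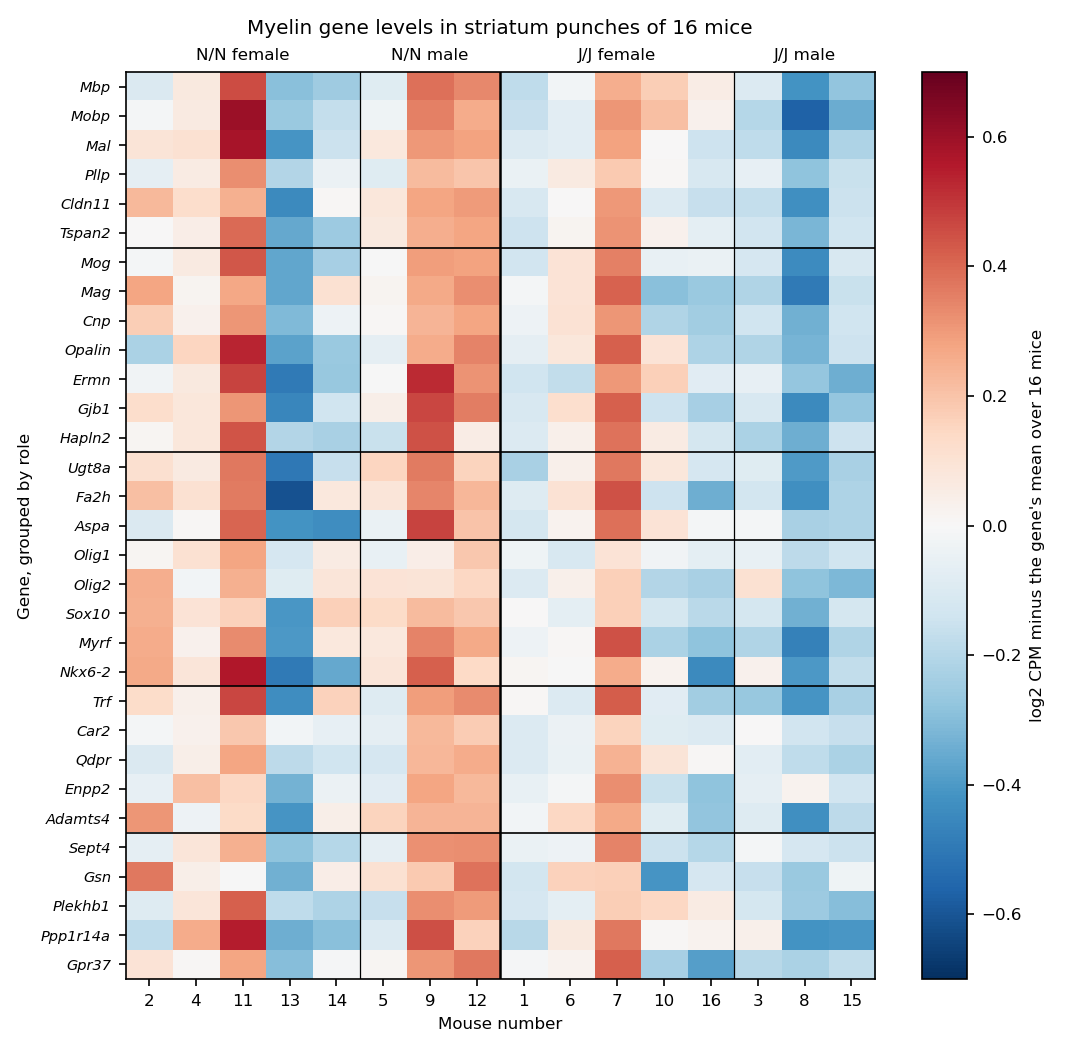
Level of each of the 31 genes (rows, grouped by role) in each of the 16 mice (columns), as log2 CPM minus the mean of the gene over all mice. Columns of mice 7, 9, 11 and 12 are red over nearly all rows and those of mice 8 and 13 are blue.

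Gene expression in other compartments differed along with the score. Markers of cortical glutamatergic neurons, cells of the tissue that borders the striatum, had a list score that correlated with the 31-gene score at r = -0.63 over the 16 mice, and markers of medium spiny neurons, the main striatal neuron, at r = 0.64. For astrocyte markers r was -0.20, for microglia markers -0.19 and for endothelial markers -0.21. All of these come from the same libraries and share their scaling, so they are given as descriptions. The score had r = 0.13 with the number of gene reads and -0.082 with the share of reads in no gene. Ttr, the transport protein that the choroid plexus secretes, stood at 22.7 CPM in mouse 11 and 14.9 CPM in mouse 12, 2 of the 4 mice with the highest myelin score, and did not exceed 1.86 CPM elsewhere. The part of fibre bundles, cortex or choroid plexus in these differences was not tested.

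The 31 genes moved as 1 block. Of their 465 pairs, 97.0% had a Pearson r above 0.5 over the 16 mice, against 7.14% of all pairs of tested genes. The median r of a pair was 0.81, and it was 0.79 when each mouse was taken as its deviation from the mean of its genotype and sex. Within the 8 N/N mice the median was 0.83, and within the 8 J/J mice 0.81. Mag, the adhesion molecule of the innermost myelin loop, and Myrf, the transcription factor that switches on myelin genes, were the closest pair at r = 0.98. Gsn and Plekhb1 were the loosest at 0.31. A first principal component held 82.1% of the variance, with all 31 loadings of 1 sign, and its values followed the score almost exactly (r above 0.9).

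Each gene was also set against the mean of the other 30. The correlation was highest for Gjb1, a connexin that forms gap junctions between myelin layers (r = 0.98), followed closely by Mal (0.97) and Mog (0.96), the glycoprotein of the outermost myelin surface. In all, 15 genes were above 0.9. The 5 lowest were Gsn (0.65), which severs actin filaments, Olig2 (0.72), Enpp2 (0.79), the secreted enzyme autotaxin, Sox10 (0.83) and Olig1 (0.84). Olig2, Sox10 and Olig1 are also made by oligodendrocyte precursors, as background, whereas Enpp2 is abundant in choroid plexus and Gsn is made by other cell types too. The part of these other cells in the lower correlations was not tested.

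Slopes on the other members separated steep from shallow genes. When the others rose by 1 log2 unit, Gjb1 changed by 1.33 log2 units, Fa2h, which hydroxylates the fatty acids of myelin lipids, by 1.31, and Nkx6-2 by 1.26. Ermn, an actin-binding protein of myelin, had a slope of 1.247. Olig1 changed by 0.47, Car2, a carbonic anhydrase, by 0.48, Olig2 by 0.61 and Gsn by 0.69. The compact myelin group had a median slope of 1.08 and the surface and inner loop group 1.13. The enzymes and carriers had 0.70 and the transcription factors 0.77, with Myrf, at 1.22, and Nkx6-2 the 2 steep ones among the 5. The slopes order the genes within these 16 libraries, and no slope was tested against another.

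A second component held 8.93% of the variance and divided the set otherwise. Ppp1r14a (an inhibitor of myosin phosphatase), Plekhb1, Aspa, Mbp, Mobp and Ermn lay at 1 end, with loadings of 0.21 to 0.27. Gsn, Mag, Adamts4 (a matrix protease), Myrf, Sox10 and Fa2h lay at the other, with loadings of -0.35 to -0.21. The ratio of Mbp to Mag shows it in single genes, which were picked after the component was seen. Its log2 value ran from 3.85 in N/N female mouse 2 to 4.69 in J/J female mouse 10, a 1.79-fold range, with a mean of 4.17 ± 0.21 in N/N mice, against 4.28 ± 0.24 in J/J mice (SD, n = 8 each). The genotypes overlapped. The component had r = 0.52 over the 16 mice with the share of reads in no gene and -0.097 with the number of gene reads, and the part of RNA quality in it was not tested.

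**Figure D2:**
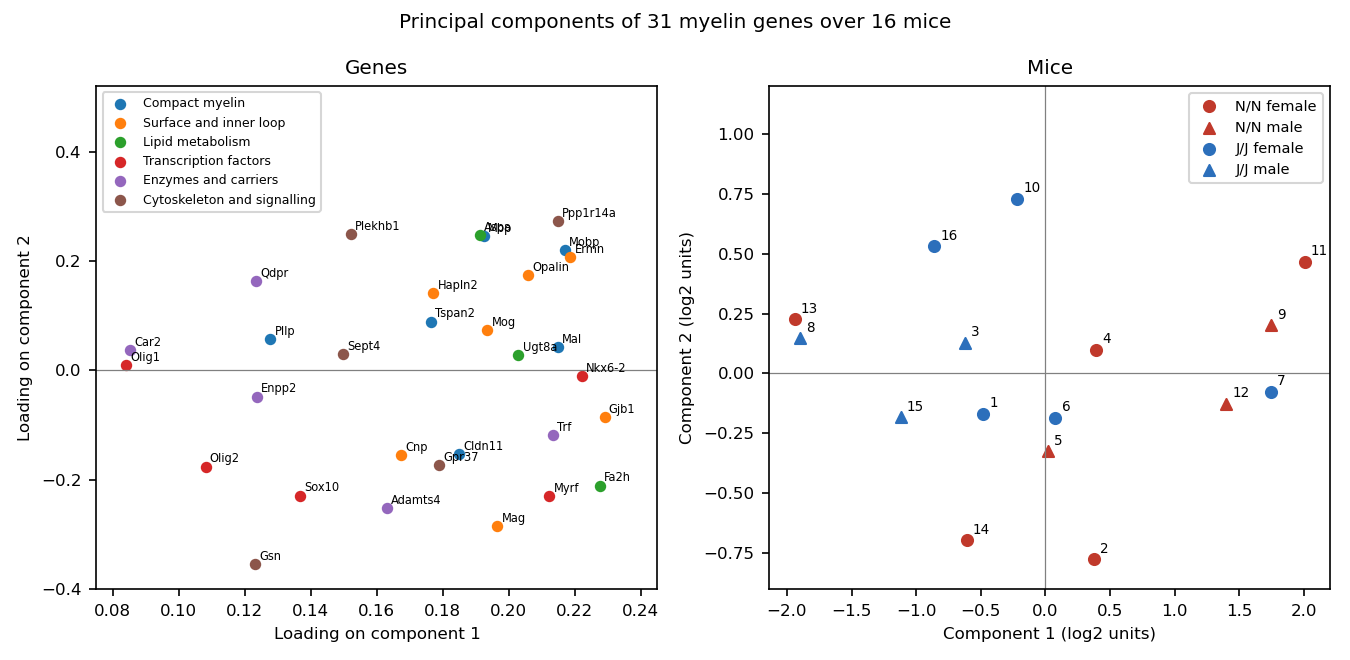
Loadings of the 31 genes on the first 2 principal components of log2 CPM (left; colour gives the role) and values of the 16 mice on them (right; red N/N, blue J/J, circles females, triangles males). Component 1 spreads mice 11, 9, 7 and 12 from mice 13 and 8, and component 2 sets mice 10 and 16 apart from mice 2 and 14.

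The same axis was found in genes outside the set. Among 16082 tested genes that are no members, those with the highest correlation to the 31-gene score included Tmem88b (r = 0.98), Litaf (0.98), Slc44a1 (0.98), Tmcc3 (0.96), Galnt6 (0.95), Cers2 (0.95), St6galnac3 (0.95), Pacs2 (0.94) and Lpar1 (0.94), with unannotated symbols passed over. Tmem88b averaged 91.5 ± 15.7 CPM in N/N mice, against 83.0 ± 14.1 CPM in J/J mice (SD, n = 8 each). Cers2 makes the very long ceramides of myelin, and Slc44a1 carries choline. Only 44 of the other genes (0.274%) had r above 0.9, and 512 (3.18%) had an r at or above that of Gsn, the lowest member. At the opposite end were Cux2 (r = -0.93), a transcription factor of upper-layer cortical neurons, Rac3 (-0.91), Adamtsl2 (-0.88), Ebf2 (-0.88) and Trpc5 (-0.87). Cux2 stood at 25.8 CPM in mouse 11 and at 63.1 CPM in mouse 8, the mice with the highest and the lowest share of myelin reads.

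Lists of related cells followed the score to different degrees. A list of 36 other mature oligodendrocyte genes had a list score with r = 0.99 to that of the 31. Like the 31, it was chosen with earlier results of these data known. Of its genes, 34 had r above 0, with Cdk18 lowest at -0.65. The 12 genes of myelin lipid synthesis and axon contact had r = 0.93 as a list, and 5 further oligodendrocyte transcription factors 0.56. The 12 markers of precursors and newly forming oligodendrocytes had 0.19, with only 6 of the 12 above 0. Within that list Enpp6, an early myelination marker, was at r = 0.81 and Bmp4 at -0.40.

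Mbp (chromosome 18, 82475146 to 82585637, plus strand, GRCm38) was set against 10 single genes in log2 CPM. Permutation tests of r and of rho over the 16 mice (100000 resamples, two-sided) were each adjusted over the 10. With Mobp, a basic protein of compact myelin, r was 0.97 (Spearman's rho 0.96), at the smallest permutation p possible, 1e-05 (adjusted p = 1e-04), and without mice 9 and 11, the farthest in Mbp, r was 0.96. For Cnp r was 0.74 (permutation p = 0.00133, adjusted p = 0.00443), and 0.63 without those 2 mice. Its rho was 0.71 (permutation p = 0.00269, adjusted p = 0.00897). For Sox10 r was 0.59 and rho 0.54, with permutation p = 0.0171 (adjusted p = 0.0428) for r and 0.0333 (adjusted p = 0.0832) for rho. That relation was not stable, since r was 0.50 without mice 9 and 11 and the adjusted p passed 0.05 when any of 10 single mice was left out. For Olig2 r was 0.52 and rho 0.50 (permutation p = 0.0416 for r, adjusted p = 0.0831).

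Other cell types gave different relations to Mbp. Slc17a7, the vesicular glutamate transporter of cortical neurons, had r = -0.75 (permutation p = 0.00019, adjusted p = 0.00095), and r = -0.62 without mice 9 and 11. Its rho was -0.72 (permutation p = 0.0023, adjusted p = 0.00897). Within N/N mice r was -0.73 and within J/J mice -0.75 (n = 8 each). Pdgfra, the receptor that marks precursors, had r = -0.44 (permutation p = 0.0868, adjusted p = 0.145), with r = -0.88 within N/N and -0.044 within J/J mice. Its rho was -0.51 (permutation p = 0.0472, adjusted p = 0.0833). For Gpr17, a receptor of newly forming oligodendrocytes, r was -0.046 (adjusted p = 0.867), for Ppp1r1b of medium spiny neurons 0.42 (adjusted p = 0.157), for Gja1 of astrocytes 0.090 (adjusted p = 0.825) and for Cldn5 of endothelium -0.28 (adjusted p = 0.365). These 4 and Pdgfra did not pass an adjusted p of 0.05 in the permutation tests.

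**Figure D3:**
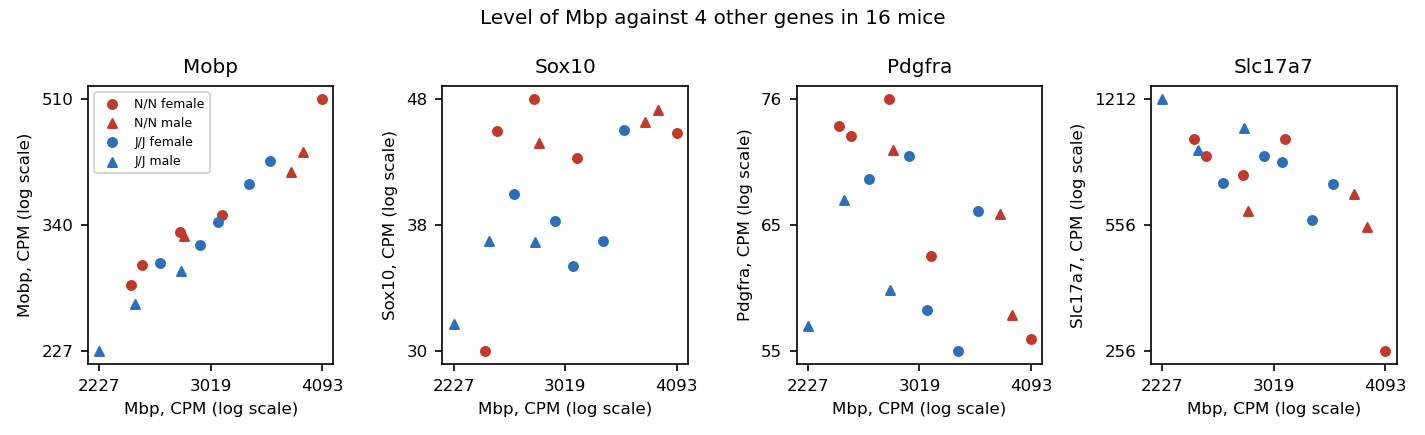
CPM of Mobp, Sox10, Pdgfra and Slc17a7 against CPM of Mbp in 16 mice (log axes; red N/N, blue J/J, circles females, triangles males). Mobp follows Mbp closely (r = 0.97), Sox10 loosely (0.59), and Slc17a7 is lower where Mbp is higher (-0.75).

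The main comparison asked whether N/N and J/J mice differ, with sex in the model. All 31 genes had a higher fitted mean in N/N mice, with log2 fold changes from 0.042 for Aspa to 0.24 for Myrf and a median of 0.17, against 0.0017 over all tested genes. By edgeR's quasi-likelihood test no member came below an adjusted p of 0.05 (smallest adjusted p = 0.712), and over all tested genes 0 passed (0.0%), also by DESeq2 and limma-voom. Before adjustment 3 of the 31 genes were higher at p under 0.05, and 551 of all tested genes were (3.42%), of 1095 in either direction. Since the 31 genes vary as a block, their signs are not independent of each other. The 8 N/N and 8 J/J mice overlapped in all 31 genes.

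The 3 genes were all transcription factors that define the oligodendrocyte lineage. Olig2 was at 18.5, 21.0 and 23.5 CPM in N/N mice (lowest, median and highest) and at 15.8, 17.7 and 22.1 CPM in J/J mice, with all 8 N/N mice above the J/J median. Its log2 fold change was 0.20 (SE 0.073; edgeR p = 0.0153, adjusted p = 0.712). Olig1, its neighbour on chromosome 16 (Olig2 from 91225457 to 91228677 and Olig1 from 91269772 to 91271933, GRCm38, both on the plus strand), was at 75.4, 84.9 and 99.3 CPM in N/N and at 72.3, 78.6 and 87.6 CPM in J/J mice. Its log2 fold change was 0.13 (SE 0.052), and 7 of 8 N/N mice lay above the J/J median. Sox10, which acts with Olig2 and Myrf on myelin genes, was at 30.4, 45.1 and 47.9 CPM in N/N mice, the lowest being mouse 13, and at 31.9, 37.1 and 45.2 CPM in J/J mice. Its log2 fold change was 0.21 (SE 0.082), with 7 of 8 N/N mice above the J/J median. Myrf and Nkx6-2, the other transcription factors, had 0.24 (SE 0.12) and 0.19 (SE 0.14).

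Among compact myelin genes the log2 fold changes ran from 0.11 to 0.23, with 0 of 6 past an unadjusted 0.05. Mbp was at 2427, 2964 and 4093 CPM in N/N mice (lowest, median and highest) and at 2227, 2860 and 3546 CPM in J/J mice, with 4 of 8 N/N mice above the J/J median and a log2 fold change of 0.14 (SE 0.12). Mobp was at 281, 342 and 510 CPM in N/N and at 227, 310 and 417 CPM in J/J mice (0.21, SE 0.13). Both overlapped over most of their range. Cldn11, the claudin of the radial myelin junction, was at 107, 165 and 180 CPM in N/N and at 109, 134 and 180 CPM in J/J mice (0.21, SE 0.10), with 7 of 8 N/N mice above the J/J median. Mal (0.23, SE 0.12), Tspan2, a tetraspanin (0.12, SE 0.11), and Pllp, the proteolipid plasmolipin (0.11, SE 0.075), completed the group.

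The 7 genes of the myelin surface and inner loop had log2 fold changes of 0.11 to 0.23. The lowest were Opalin (0.11, SE 0.14), a membrane protein restricted to oligodendrocytes, Mog (0.12, SE 0.12) and Hapln2, a link protein of the matrix at the node of Ranvier (0.12, SE 0.11). Mag had 0.23 (SE 0.12), Gjb1 0.20 (SE 0.13), Cnp, the phosphodiesterase that keeps cytoplasmic channels open within myelin, 0.17 (SE 0.097) and Ermn 0.17 (SE 0.14). The 3 genes of lipid metabolism had 0.21 (SE 0.14) for Fa2h, 0.15 (SE 0.12) for Ugt8a, which makes galactosylceramide, and 0.042 (SE 0.13) for Aspa, which frees acetate from N-acetylaspartate. Aspa was at 25.3 ± 5.90 CPM in N/N mice, against 24.5 ± 3.53 CPM in J/J mice (SD, n = 8 each), with 4 of 8 N/N mice above the J/J median.

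Among enzymes and carriers Car2 had the smallest unadjusted p. It was at 189, 199 and 231 CPM in N/N mice (lowest, median and highest) and at 177, 186 and 220 CPM in J/J mice. All 8 N/N mice were above the J/J median, and the log2 fold change was 0.12 (SE 0.055; edgeR p = 0.0516, adjusted p = 0.712). Trf, the iron carrier transferrin, had 0.23 (SE 0.12), Adamts4 0.17 (SE 0.10), Enpp2 0.089 (SE 0.089) and Qdpr 0.074 (SE 0.082). In the last group Gsn was at 47.3, 63.0 and 77.8 CPM in N/N and at 44.8, 54.8 and 67.0 CPM in J/J mice, with 7 of 8 N/N mice above the J/J median (0.20, SE 0.10). Gpr37, a receptor of myelinating oligodendrocytes, had 0.18 (SE 0.11), Ppp1r14a 0.15 (SE 0.14), Plekhb1 0.14 (SE 0.10) and Sept4, a septin of the myelin scaffold, 0.094 (SE 0.096).

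These values stand beside others that differ between the same mice. The 11 cortical markers all had log2 fold changes below 0 (median -0.28; Emx1, -0.37, had the smallest p) and the 16 medium spiny neuron markers all above 0 (median 0.17; Penk, 0.35, had the smallest p). Once the cortical score was a further term of the model, the median of the 31 genes was 0.062, 24 of them were above 0 and 0 had an unadjusted p under 0.05. Without mice 11 and 12, which carry the Ttr reads, 0 had one either. The count of 3 was 8 by DESeq2, 15 without J/J female mouse 7 and 18 without N/N female mouse 13, the mice at the top of the J/J and at the bottom of the N/N range. Over all tested genes, in either direction, 1095 reached that p in the main fit. The number was 967 with the cortical score and 833 without mice 11 and 12. It was 1090 by DESeq2, 1118 without mouse 7 and 1667 without mouse 13.

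Other lists were counted in the same way, and 0 of their genes passed the adjusted threshold by edgeR. Of the 36 other mature oligodendrocyte genes 33 were above 0 (median 0.15), with 1 higher at an unadjusted p under 0.05, the deacetylase Sirt2 (0.083, SE 0.038). Of the 12 lipid and axon contact genes 10 were above 0 (median 0.080), 3 of them at an unadjusted p under 0.05 and Cd81 of smallest p (0.10, SE 0.039). Of the 12 precursor and newly forming markers 11 were above 0 (median 0.13), 4 of them at an unadjusted p under 0.05 and Gpr17 of smallest p (0.28, SE 0.083). Among the 5 other transcription factors 3 were above 0, with 1 at an unadjusted p under 0.05, Tcf7l2 (0.19, SE 0.087). Astrocyte, microglia and endothelial markers had 10 of 10, 10 of 10 and 9 of 10 above 0, with medians of 0.099, 0.079 and 0.097 and Mlc1, Tmem119 and Ly6c1 of smallest p. An unadjusted p under 0.05 was reached by 0 of the astrocyte, 2 of the microglia and 1 of the endothelial markers. Of 7 tested choroid plexus and ependymal markers 6 were above 0, 3 of them at an unadjusted p under 0.05 and Ttr of smallest p. Of 4 tested Schwann cell markers 2 were above 0 and 0 had such a p, with Prx of smallest p.

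No difference in the balance between members, or between members and precursor genes, was detectable. In 6 log2 ratios, tested by exact permutation of genotype within sex (5040 relabellings, two-sided), the smallest adjusted p was 0.662. Log2 Mbp over Sox10 was 6.17 ± 0.26 in N/N mice, against 6.24 ± 0.17 in J/J mice (SD, n = 8 each; difference -0.069, exact permutation p = 0.551), and Mbp over Olig2 differed by -0.072 and Mog over Sox10 by -0.085. Mobp over Sox10 was 3.06 ± 0.25 in N/N mice, against 3.06 ± 0.21 in J/J mice (SD, n = 8 each). Gpr17 over Mbp differed by 0.14 and Pdgfra over Sox10 by -0.11, the last with 7 of 8 N/N mice below the J/J median. A ratio shows unequal change at most and does not show which gene changed.

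Females and males were compared over both genotypes next. The 31 genes had log2 fold changes of females over males between -0.076 for Sept4 and 0.15 for Mobp, with a median of 0.032, 22 above 0 and 9 below. None of the 31 reached an unadjusted p under 0.05 by edgeR, against 4.95% of all tested genes, and the smallest adjusted p of a member was 0.951. Over all tested genes 9 passed the adjusted threshold (0.0559%).

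**Figure D4:**
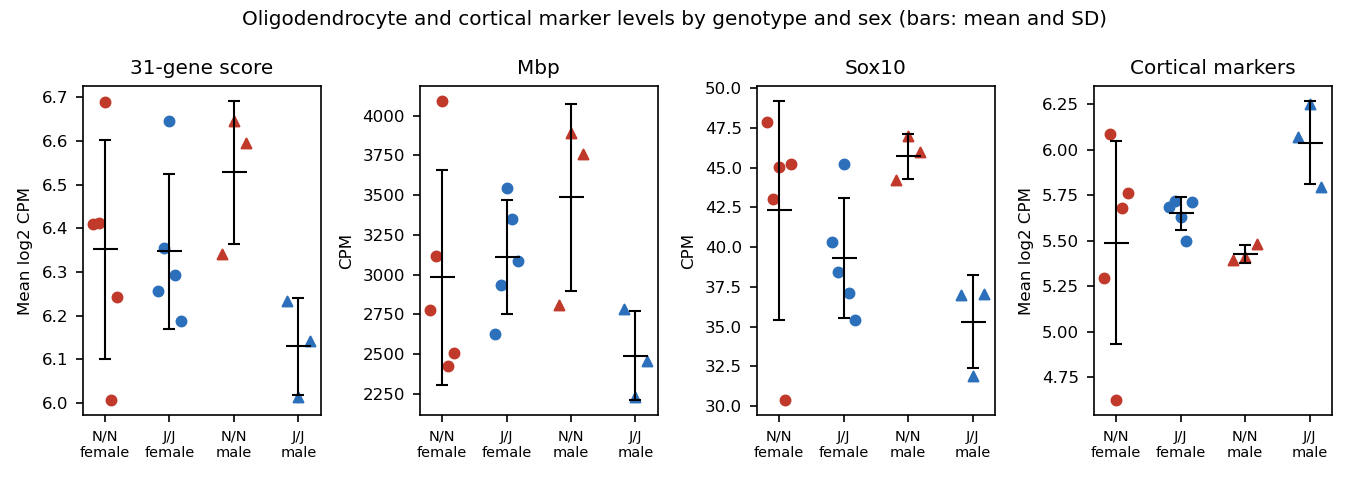
Values of each mouse by sex and genotype for the 31-gene score, Mbp, Sox10 and the cortical marker score; the bar is the mean and SD of 5 mice (females) or 3 mice (males). N/N males lie above J/J males in the first 3 panels and below them in the fourth, while the female groups overlap in all 4.

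Genotype was then compared within each sex. In females the 31 genes were split, with 18 above 0 and 13 below, a median log2 fold change of 0.0075 and a range of -0.16 for Aspa to 0.16 for Olig2. None reached an unadjusted p under 0.05, against 4.41% of all tested genes, and 0 of all tested genes passed the adjusted threshold by edgeR (0.0%). The female values moved with single mice: 29 genes were above 0 without N/N mouse 13 (median 0.077, 2 at an unadjusted p under 0.05), 28 without J/J mouse 7 (median 0.098) and 8 without N/N mouse 11 (median -0.078). In males all 31 were above 0, with a median of 0.41 and a range of 0.19 for Olig1 to 0.57 for Gjb1. Here 25 of the 31 were higher at an unadjusted p under 0.05, against 798 of all tested genes (4.95%), but none passed the adjusted threshold (smallest adjusted p = 0.400), and neither did any other gene (0.0%).

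In 20 of the 31 genes each of the 3 N/N males was above each of the 3 J/J males, an order found in 8.81% of all tested genes. In females 0 of the 31 separated the genotypes, an order found in either direction in 0.497% of all tested genes. The male groups hold 3 mice each and the female groups 5, so these shares are not on 1 footing. Mobp was at 329, 429 and 404 CPM in the N/N males (mice 5, 9 and 12) and at 293, 227 and 264 CPM in the J/J males (mice 3, 8 and 15), a log2 fold change of 0.57 (SE 0.19). Mbp was at 2811, 3888 and 3760 CPM in the N/N males and at 2784, 2227 and 2457 CPM in the J/J males (0.49, SE 0.17), so that the groups do not overlap but mouse 5 exceeded mouse 3 by little. Sox10 was at 44.2, 47.0 and 46.0 CPM in the N/N males and at 37.0, 31.9 and 37.1 CPM in the J/J males (0.37, SE 0.13) and did not overlap either. In Gpr37 the N/N males were at 67.8, 83.3 and 86.7 CPM and the J/J males at 58.9, 57.7 and 59.7 CPM (0.43, SE 0.17).

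In females the same genes overlapped. Mobp was at 333, 351, 510, 281 and 299 CPM in the N/N females (mice 2, 4, 11, 13 and 14) and at 301, 319, 417, 389 and 344 CPM in the J/J females (mice 1, 6, 7, 10 and 16), a log2 fold change of 0.0039 (SE 0.15). Sox10 was at 47.9, 43.0, 45.0, 30.4 and 45.2 CPM in the N/N females and at 40.4, 38.4, 45.2, 37.1 and 35.4 CPM in the J/J females (0.11, SE 0.098). Both the highest and the lowest female in Mobp, mice 11 and 13, were N/N. The 5 transcription factors of the set were all above 0 in females (median 0.099), and 5 of the 7 surface and inner loop genes were below 0 (median -0.023).

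**Figure D5:**
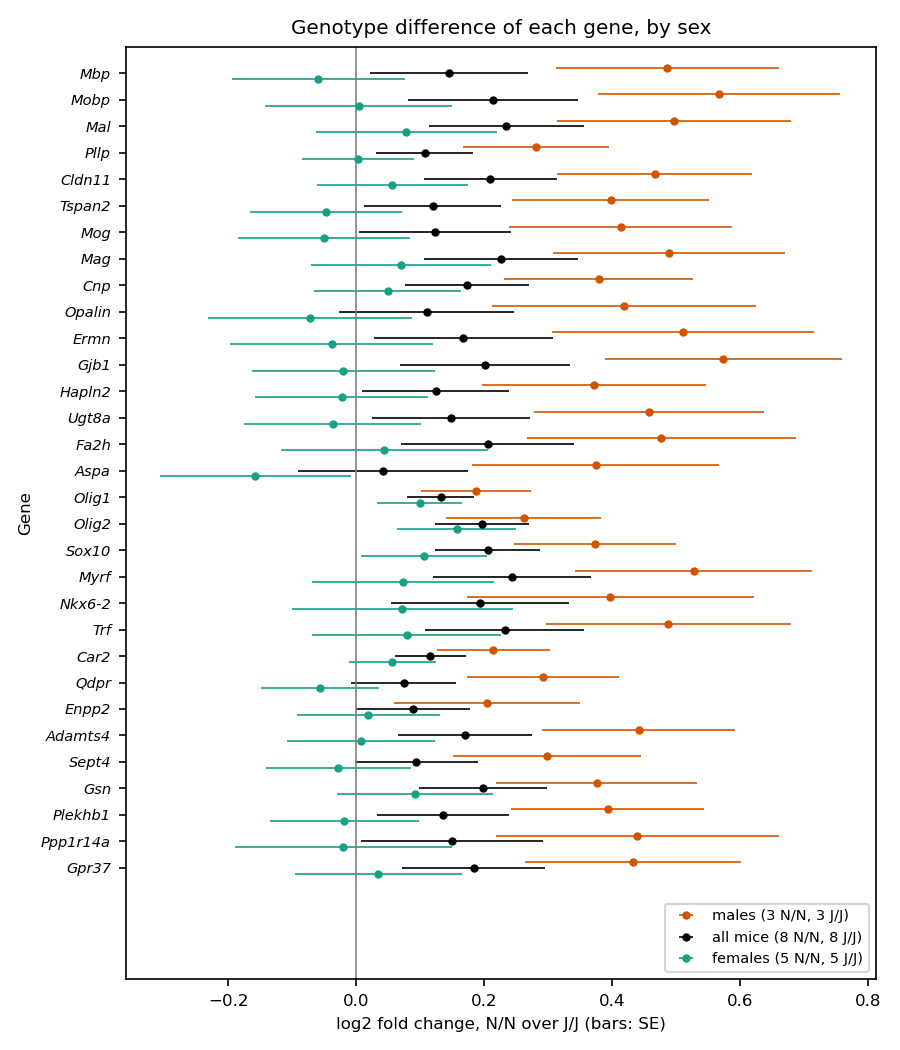
Genotype difference of each of the 31 genes as a log2 fold change with SE, N/N relative to J/J, in males (orange), all mice (black) and females (green). Values in males are all above 0, with a median of 0.41, and values in females lie around 0, with a median of 0.0075.

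The difference between the sexes was tested as an interaction, the genotype difference in females minus that in males. It was below 0 for all 31 genes, from -0.59 for Gjb1 to -0.088 for Olig1, with a median of -0.41. Of the 31, 10 were lower at an unadjusted p under 0.05 (Mbp, Mobp, Cldn11, Tspan2, Gjb1, Ugt8a, Aspa, Qdpr, Adamts4 and Plekhb1), against 497 of all tested genes (3.08%), and none passed the adjusted threshold (smallest adjusted p = 0.692). Over all tested genes 0 passed by edgeR (0.0%), with 1118 at an unadjusted p under 0.05, and 1 by DESeq2. Without N/N female mouse 11, which has the highest share of myelin reads, 66 genes passed, 0 of them members. In that setting 22 members had an unadjusted p under 0.05, as did 2441 of all 16108 tested genes in either direction. The member count was 19 without N/N male 5, 2 without J/J female 7, 1 without N/N male 12 and 0 without J/J male 8 or without N/N male 9, and it was also 0 with the cortical marker score as a term. Over all tested genes, in either direction, the count was 931 without mouse 5, 820 without mouse 7 and 1523 without mouse 12. It was 691 without mouse 8, 593 without mouse 9 and 459 with the cortical marker score.

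The male difference went with other values of the same 6 mice. Summed CPM of the 11 cortical markers ran from 1083 to 1217 in N/N males and from 1524 to 2088 in J/J males, with a median log2 fold change of -0.68, and that of the 16 medium spiny neuron markers from 10210 to 12500 in N/N males and from 6423 to 10690 in J/J males. Once the cortical score was a term of the 4-group model, the male median of the 31 genes was 0.23, all 31 were above 0 and 0 had an unadjusted p under 0.05, and the female median was -0.028. Over all tested genes 399 had such a p in males, against 1815 without that term. The cortical score itself did not overlap between N/N males (5.39 to 5.48) and J/J males (5.80 to 6.25). Cortical content and genotype can therefore not be told apart in males by this fit. When single males were left out, the male count was 5 without J/J mouse 8, 9 without N/N mouse 9 or N/N mouse 12, 17 without J/J mouse 15, 24 without J/J mouse 3 and 28 without N/N mouse 5 (median 0.50), where each remaining pair is assumed to vary like the other groups. Over all tested genes, in either direction, that count was 806 without mouse 8, 1100 without mouse 9 and 1910 without mouse 12. It was 2095 without mouse 15, 1332 without mouse 3 and 1344 without mouse 5. The part of cortical or striatal neuron content in the male difference was not tested beyond the fit with the cortical score. Without N/N female mouse 11, which enters the male comparison through the shared spread, the member count was 29, with 2247 of all tested genes at that p. By edgeR 8 of all tested genes then passed the adjusted threshold, 0 of them members (smallest member adjusted p = 0.0869).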

How the data were processed

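Striatum punches of 16 F2 mice were sequenced as 50 bp single-end reads from stranded libraries, each in 4 runs, per the labels' protocols. The deposited files are raw read counts per gene. The submitters' processing notes name FastQC 0.11.3, TopHat2 2.1.0, mm10 and HTSeq 0.6.1p1, and also edgeR 3.8.6 and limma 3.22.7 without their use. The annotation release and strand setting of the counting are not given in the sources used here. Overlapping antisense genes may share reads. Rows that name no gene held 19.95% (no feature), 21.84% (not unique) and 0.78% (ambiguous) of reads and were left out.

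Counts of the 4 runs were summed per mouse, giving 27405386 to 51334152 gene reads (median 31538235 in N/N mice, against 31502380 in J/J). Nothing states that the mice were independent litters, so p-values measure the spread between mice. Genes were filtered with filterByExpr and fitted over the whole table with edgeR 4.0.16 (TMM, robust quasi-likelihood, R 4.3.3). Genotype and sex were additive terms, and a 4-group model gave the interaction and the within-sex differences. P-values were adjusted by Benjamini-Hochberg over all 16113 genes. Log2 CPM used a prior count of 2. Alternatives were DESeq2 1.42.0, limma-voom 3.58.1, factors from RLE or from library size alone, other filters, no sex term, a cortical score term and leaving out each mouse. Leaving out mice 11 and 12 together, all settings of the within-sex results and the cortical term in the 4-group model were added after seeing the data. Tests were tried on simulated data.

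The 31 genes and all lists were chosen with earlier results of these data known. Values by mouse, or the lowest, median and highest per genotype, are given for Mbp, Mobp, Olig2, Sox10 and the 6 members of smallest genotype p (and for Gpr37 in males, picked after its values were seen); likeness names genes from the 10 of highest and the 5 of lowest r, and each list its gene of smallest p. Values of some single genes are not reported here. Gene positions and exon lengths came from GENCODE M21 on GRCm38.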

Additional observations from a re-analysis of the deposited data

Results flagged for a closer look

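In 78 groups of values (31 genes, the score and 6 ratios in the 8 mice of each genotype, and the score in the 5 females of each), the highest or lowest mouse was checked for a gap to its neighbour that is large against the range of the group (Dixon's criterion). It was met 9 times, and chance meets it in about 1 in 20 groups. In N/N female mouse 13 Cldn11 (107.4 CPM), Fa2h (25.61 CPM) and Sox10 (30.38 CPM) lay far below the other N/N mice, whose next values were 147, 41.0 and 43.0 CPM, and log2 Pdgfra over Sox10 (1.28) lay above them. In J/J female mouse 7 Myrf (84.79 CPM), Trf (401.2 CPM), Enpp2 (273.8 CPM), Sept4 (200.6 CPM) and Gpr37 (89.93 CPM) lay far above the other J/J mice, whose next values were 62.6, 301, 223, 156 and 68.4 CPM. Since the 31 genes vary together, these are 2 mice rather than 9 separate events.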

How the results depend on the processing

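Over both sexes no gene was called for genotype in any setting tried. The genotype median of the 31 genes (0.17) ran from 0.10 without mouse 11 to 0.22 without mouse 13 when single mice were left out, was 0.085 without mice 11 and 12 and 0.062 with the cortical score, and was above 0 in every setting. The median for sex (0.032) ran from -0.026 without mouse 8 to 0.077 and so turned its sign, and that for genotype in females (0.0075) from -0.078 to 0.098. The count of members at an unadjusted p under 0.05 for genotype (3) was 8 by DESeq2, 0 with the cortical score, 0 without mice 11 and 12, and 2 to 18 when single mice were left out. Over all tested genes the same count (1095, in either direction) ran from 737 to 1918 when single mice were left out. In males the count (25) was 0 with the cortical score and 5 to 29 when single mice were left out, and 8 genes were called without mouse 11. Over all tested genes the male count (1815, in either direction) was 399 with the cortical score and 806 to 2247 when single mice were left out. Calls for sex (9) were 5 with 1 CPM required in 8 mice. Interaction calls (0) were 1 by DESeq2, 1 with no low-count filter, 43 without mice 11 and 12, and 0 to 66 when single mice were left out. With the cortical score the log2 fold change turned to -0.011 for Mbp, -0.024 for Tspan2, -0.026 for Mog, -0.037 for Opalin, -0.012 for Hapln2, -0.12 for Aspa and -0.013 for Qdpr. Without mice 11 and 12 it was -0.032 for Opalin, -0.054 for Aspa and -0.0076 for Qdpr. Leaving out single mice, Aspa ran from -0.031 to 0.11, log2 Mobp over Sox10 from -0.062 to 0.049, and r with Mbp from -0.12 to 0.35 for Gja1, -0.28 to 0.063 for Gpr17, 0.42 to 0.61 for Olig2, -0.66 to -0.34 for Pdgfra and 0.49 to 0.68 for Sox10. On residuals after genotype and sex, r was -0.59 for Pdgfra, now past the threshold, and -0.0036 for Gja1. The causes were not tested. DESeq2 was not run within each sex. No paired analysis was possible because the labels name no pairs of mice. With 3 males per genotype, and with Nkx6-2 and Ppp1r14a at 10.2 CPM or less, small differences were not detectable.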
